A study of Mus musculus with 2 samples.

Results

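The 32 genes described here encode the folding machinery of the endoplasmic reticulum (ER) and the components of the unfolded protein response, among 32285 genes listed in the count tables. They were taken as a fixed list of gene symbols, not by their measured values. All 32 symbols were found, each listed once. By role they comprise 8 genes of the HSP70 and HSP90 system, 2 lectin chaperones, 6 genes of disulfide bond formation, 3 genes of stress sensing and signalling, 9 genes of ER-associated degradation and 4 translocon genes.

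Proteins bound for secretion or for membranes enter the ER through the Sec61 channel and are folded there by HSP70 and HSP90 chaperones, by lectin chaperones that read their sugars, and by protein disulfide isomerases. When unfolded protein accumulates, the membrane sensors ATF6 and IRE1 (Ern1) raise the transcription of these chaperones, IRE1 by splicing the Xbp1 mRNA. The sensor PERK acts differently: it slows translation and favours the translation of ATF4, which drives genes of amino acid supply such as Asns and stress genes such as Chac1 and Trib3. Other kinases outside the ER also act on ATF4, so its targets can move without the chaperones.

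The cells were R1 mouse embryonic stem cells. Single cells in droplets were sequenced from 2 conditions, with 1 library each. Both cultures were kept in serum-free N2B27 medium with the cytokines LIF and BMP4 for 72 h, and no cells without these 2 cytokines were measured. The LB cells received nothing further and grew on gelatin. The LBPXRS cells also received the MEK inhibitor PD0325901, the tankyrase inhibitor Xav939, the activin and NODAL receptor inhibitor SB431542 and a resorcylic lactone with no stated target, and grew on fibronectin. The 4 compounds and the substrate therefore cannot be told apart. With 1 library per condition there is no replicate and no test: intervals given below are 95% intervals of the counts and cover counting error only, and PCR or culture variation is not in them.

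The promoters of 4 members and of Chac1 are shown because the elements searched for lie in them. Promoters of 300 bases, 250 before and 50 after the RefSeq start, were found for 26 of the 32 members (27 rows, since Derl2 has 2 starts) in the RefSeq table of build GRCm38.p6. Hyou1, Manf, Atf6, Derl1, Sec61a1 and Ssr2 had no row. The ER stress element was searched as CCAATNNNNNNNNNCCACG and its variant, the ER stress element II, as ATTGGNCCACG, both on either strand. The composite element read by ATF4 with C/EBP factors was searched as TGATGNAA and the UPR element as TGACGTGG. The letters CCACG are common to both ER stress elements and, on the other strand, to the UPR element. In the sequences below the fixed letters of a match are in capitals, and Chac1, which is no member, is shown for the element it shares with Herpud1.
Hspa5 (chr2:34771840-34772139, plus strand): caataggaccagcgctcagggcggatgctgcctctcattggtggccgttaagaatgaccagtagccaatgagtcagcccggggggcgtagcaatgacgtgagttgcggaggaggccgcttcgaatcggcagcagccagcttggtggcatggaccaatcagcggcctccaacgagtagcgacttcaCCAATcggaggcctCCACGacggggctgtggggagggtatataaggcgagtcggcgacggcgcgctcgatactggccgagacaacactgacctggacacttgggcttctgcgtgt
Hsp90b1 (chr10:86705395-86705694, minus strand): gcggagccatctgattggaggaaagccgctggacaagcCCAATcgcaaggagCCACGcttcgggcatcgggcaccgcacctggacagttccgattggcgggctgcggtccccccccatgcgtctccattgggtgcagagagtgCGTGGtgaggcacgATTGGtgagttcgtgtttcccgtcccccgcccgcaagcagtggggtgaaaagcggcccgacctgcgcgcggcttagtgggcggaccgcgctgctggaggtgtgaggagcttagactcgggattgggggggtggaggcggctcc
Pdia6 (chr12:17266339-17266638, plus strand): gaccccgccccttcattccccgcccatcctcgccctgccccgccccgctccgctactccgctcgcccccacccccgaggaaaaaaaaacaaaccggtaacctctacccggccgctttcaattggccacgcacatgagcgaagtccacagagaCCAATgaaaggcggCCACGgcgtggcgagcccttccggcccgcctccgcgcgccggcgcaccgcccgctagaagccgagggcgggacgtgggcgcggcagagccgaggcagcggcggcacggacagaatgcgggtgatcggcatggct
Herpud1 (chr8:94386179-94386478, plus strand): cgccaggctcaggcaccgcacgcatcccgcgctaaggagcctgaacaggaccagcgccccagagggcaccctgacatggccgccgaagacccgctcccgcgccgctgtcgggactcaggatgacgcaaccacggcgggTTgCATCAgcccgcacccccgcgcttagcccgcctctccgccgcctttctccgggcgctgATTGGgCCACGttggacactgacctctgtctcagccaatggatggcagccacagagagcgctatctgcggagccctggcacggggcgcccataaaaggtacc
Chac1 (chr2:119350992-119351291, plus strand): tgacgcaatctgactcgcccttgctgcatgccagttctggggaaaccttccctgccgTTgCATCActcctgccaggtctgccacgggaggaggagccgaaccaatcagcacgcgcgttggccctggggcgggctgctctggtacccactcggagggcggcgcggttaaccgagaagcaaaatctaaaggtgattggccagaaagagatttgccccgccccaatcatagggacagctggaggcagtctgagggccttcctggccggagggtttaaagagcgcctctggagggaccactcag

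An ER stress element or its variant was found in 11 of the 26 members with a promoter row, against 51 of all 32851 promoter rows, or 0.155%. The element itself was in Hspa5, Hsp90b1, Calr, Canx, Pdia6, Creld2, Dnajc3, Derl3 and Syvn1, and the variant in Herpud1 and Dnajb11. In Hspa5 it lay from 65 to 47 bases before the start, in Pdia6 from 98 to 80 bases before it, and Hsp90b1 held 2 copies, from 212 to 194 and from 107 to 89 bases before its start. The ATF4 composite element was found in 1 member, Herpud1, from 112 to 105 bases before the start, without overlap with its ER stress element II at 52 to 42 bases. That composite element was in 3.97% of all promoter rows. In a list of 26 genes of the PERK and ATF4 branch, which has 27 promoter rows, 7 rows held it (Asns, Atf3, Chac1, Nupr1, Slc7a11, Trib3 and Vldlr) and 0 held an ER stress element. The UPR element was in 0 of the 27 member rows and in 0.676% of all rows. A match to letters is a description of the sequence, not evidence of binding.

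After removal of barcodes with fewer than 1000 genes or more than 10% mitochondrial counts, 1783 LB cells with 45490517 unique molecule counts (UMIs) and 2705 LBPXRS cells with 51832444 UMIs remained, with median depths of 25418 and 19058 UMIs per cell. The libraries shared 10 barcodes. Levels are given as CPM, UMIs scaled to 1000000 in a pool of cells, and because only transcript ends are counted they do not scale with transcript length. Markers of naive pluripotency, the defining genes of embryonic stem cells, summed to 1139 CPM in LB and 1760.1 in LBPXRS, with 11 of 11 counted. The LB library also held mesoderm-like clusters (229 and 350 cells), and its 12 mesoderm markers summed to 344 CPM against 5.42 in LBPXRS, so the 2 libraries differ in which cells they hold. A level pooled over a whole library does not by itself separate the number of cells of a type from their level per cell. Ratios against the naive pluripotent-like LB cells alone are therefore given too. These are a single LB cluster of 583 cells. LB clusters of 174 and 62 cells, with 4 and 3 naive markers raised, were not given that name and are not in it.

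The ER genes as a group stood at nearly the same level in both conditions. The 32 members together made up 2991 CPM in LB and 2845 in LBPXRS, with a ratio of 0.951. Of the 27 members with at least 10 CPM in either library, 3 passed a rule of 1.5-fold on the log2(CPM + 1) scale toward LBPXRS, against 14.6% of all 7661 genes counted, and 4 passed it toward LB, against 25.0% of them. The median log2 ratio of the members was -0.20 and that of all genes counted -0.17. In the list of the PERK and ATF4 branch, by contrast, 10 of 20 counted genes passed that rule toward LBPXRS and 1 toward LB, and the list's sum went from 1201 in LB to 2437 CPM, with Ddit3, the gene of the stress factor CHOP, at 14.6 in LB and 130.3 in LBPXRS. Of 47 counted genes in a wider list of ER folding, degradation and translocation genes, 4 were higher and 10 lower by this rule, and of 14 cytosolic chaperones 0 were higher and 6 lower.

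**Figure D1:**
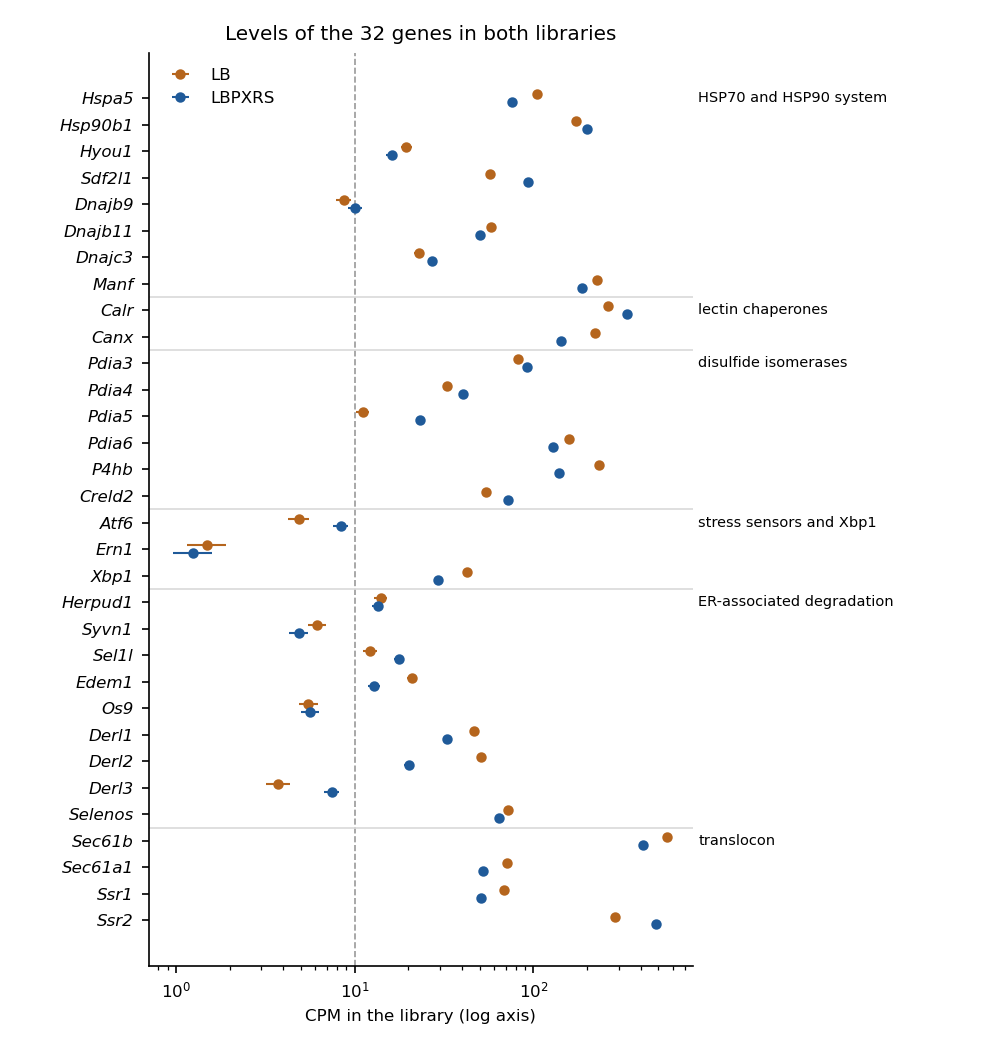
Level of each of the 32 genes in the LB and LBPXRS libraries, as CPM on a log axis, grouped by role. Bars are exact 95% Poisson intervals of the counts, with 1 library per condition, and the dashed line marks 10 CPM. Ern1 is the lowest gene in both libraries, and Derl2 shows the widest gap with LB above LBPXRS.

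Among the HSP70 and HSP90 genes, Hspa5 (ENSMUSG00000026864, GRCm38 chr2:34771970-34777547), which encodes the central ER chaperone BiP, stood at 105 CPM in LB and 75.6 in LBPXRS (ratio 0.719, 0.689 to 0.750). Hsp90b1 (ENSMUSG00000020048, chr10:86690209-86705509), the ER HSP90 called GRP94, was at 172 in LB and 199.6 in LBPXRS. Both lay within 1.5-fold. Against the naive pluripotent-like LB cells alone, the log2 ratio was 0.04 for Hspa5, in place of -0.47, and 0.36 for Hsp90b1, in place of 0.22. Manf, a secreted cofactor of BiP, was at 228 in LB and 186 in LBPXRS. The member of this group past 1.5-fold was Sdf2l1, a BiP cofactor, at 56.9 in LB and 93.3 in LBPXRS (ratio 1.64, 1.56 to 1.72). Against naive pluripotent-like LB cells its log2 ratio was 0.53 in place of 0.70, which misses the rule, while that of Dnajc3 was 0.84 in place of 0.23 and passed it. Hyou1, which exchanges nucleotide on BiP, and the co-chaperone genes Dnajb11 and Dnajc3 lay between 0.826 and 1.18 in ratio. Dnajb9, a co-chaperone that holds IRE1 inactive, was at 8.68 and 10.1 CPM.

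Of the lectin chaperones, Calr (ENSMUSG00000003814, chr8:84841850-84846934), the soluble calreticulin, was at 262 CPM in LB and 332 in LBPXRS. Canx (ENSMUSG00000020368, chr11:50293961-50325673), the membrane-bound calnexin, was at 220.1 in LB and 142 in LBPXRS (ratio 0.645, 0.626 to 0.665). Both read the same sugar signal on folding glycoproteins. The log2 ratio of Canx, -0.63, was -0.50 against naive pluripotent-like LB cells and -0.48 under TMM scaling (trimmed mean of M-values, which sets the libraries to a common level of most genes), which both miss the rule. Their chromosomes matter for this comparison: the median log2 ratio of all counted genes was -0.63 on chromosome 11 and -0.61 on chromosome 8, against -0.17 over all chromosomes. Canx sat at the median of its chromosome, and Calr 0.95 above its own. Whether chromosome copy number differs between the 2 cultures was not tested.

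The disulfide isomerases were split. Pdia5 was at 11.1 CPM in LB and 23.2 in LBPXRS (ratio 2.09, 1.88 to 2.32). P4hb, which is also a subunit of collagen prolyl hydroxylase and lies on chromosome 11, was at 231 in LB and 139 in LBPXRS (ratio 0.602, 0.584 to 0.620). P4hb lay 0.10 below the median log2 ratio of its chromosome, and its own log2 ratio of -0.73 was -0.58 under TMM scaling, just short of the rule. Pdia5 passed the rule in both settings. Pdia6 was at 159 and 129, Pdia3, the partner of calreticulin and calnexin, at 81.9 and 92.2, Pdia4 at 33.0 and 40.5, and Creld2 at 54.2 and 72.0 CPM in LB and LBPXRS, each within 1.5-fold.

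The sensors were scarce. Atf6 was at 4.86 CPM in LB and 8.37 in LBPXRS, and Ern1, which encodes IRE1, at 1.49 (68 UMIs) and 1.25 CPM, so neither was counted. At 10000 UMIs per cell, Ern1 was detected in 1.28% of LBPXRS cells. Xbp1 (ENSMUSG00000020484, chr11:5520659-5525893), the target of IRE1, was at 42.7 in LB and 29.2 in LBPXRS (ratio 0.684, 0.639 to 0.732), which is 0.10 above the median log2 ratio of chromosome 11. Its log2 ratio was -0.53, and -0.71 against naive pluripotent-like LB cells, which passes the rule. Counts of transcript ends do not tell spliced from unspliced Xbp1.

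In ER-associated degradation, which returns misfolded proteins to the cytosol, the lowest ratio of all 27 counted members was that of Derl2, a derlin of the ER membrane on chromosome 11, at 50.6 CPM in LB and 20.2 in LBPXRS (ratio 0.399, 0.371 to 0.430). It was 0.65 below the log2 median of its chromosome, and it passed the rule under TMM scaling and against naive pluripotent-like LB cells as well. Its relative Derl1 was at 46.3 and 33.0, and Derl3 at 3.74 and 7.43, too low to be counted. Edem1, a lectin that marks misfolded glycoproteins, was at 20.9 in LB and 12.9 in LBPXRS (ratio 0.618), but its log2 ratio of -0.65 was -0.02 against naive pluripotent-like LB cells and -0.51 under TMM scaling, so the call was lost in both. Herpud1 (ENSMUSG00000031770, chr8:94386438-94395377), which organises the degradation complex, was at 14.0 and 13.5 CPM, while Sel1l, the adapter of that complex, was at 12.2 in LB and 17.7 in LBPXRS. The log2 ratio of Sel1l, 0.50, was 0.98 against naive pluripotent-like LB cells and 0.64 under TMM, past the rule in both, and that of Derl1 was -0.06 against those cells in place of -0.47. Selenos stood at 72.5 and 64.5, and Syvn1, the ubiquitin ligase HRD1, and Os9 stayed below 7 CPM in both libraries.

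Of the translocon genes, Sec61b and Ssr2 were the most abundant of the list. Sec61b, a subunit of the channel, was at 560.2 CPM in LB and 410.4 in LBPXRS, and Sec61a1, its pore, at 71.4 and 51.9. Ssr2, a subunit of the translocon-associated complex, was at 286 in LB and 485 in LBPXRS (ratio 1.69, 1.66 to 1.73), while Ssr1 of the same complex was at 68.5 and 51.2. Against naive pluripotent-like LB cells the log2 ratio of Ssr2 was 0.35 in place of 0.76, and the call was lost.

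The relation to the Chac1 and Trib3 response was then examined across cells, by dividing LBPXRS cells into 999 with no UMI of either gene and 3 bins of 569, 569 and 568 cells by their share of UMIs. The sum of the ER genes was almost flat: over all members the bins held 2861, 2749, 2873 and 2894 CPM from none to highest. Single members moved both ways: of 27 counted, 18 had a log2 ratio of the highest bin to none above 0 and 9 below. Of all 7032 genes counted, 4437 were above 0. Between the highest bin and the cells without a UMI, 1 of 27 counted members was at least 1.5-fold higher, where 2.35% of all genes were, and 0 were at least 1.5-fold lower, where 1.83% of all genes were. In the PERK and ATF4 list, which holds Chac1 and Trib3 themselves, 10 of 20 were higher. Hspa5 was at 80.3, 67.7, 78.6 and 73.7 CPM along the bins, so its highest and lowest bins were not ordered by the share. These values include the 49 cells of the LBPXRS Pmel cluster described below, in which Hspa5 was at 852 CPM. Of those cells 30 lay in the bin without a UMI and 8 in the highest bin. The bin without a UMI was shallower, with a median depth of 16765 against 20016 UMIs, and its median mitochondrial share was 2.79% against 2.38% in the highest bin. With cells thinned to 10000 UMIs before binning the members' median log2 ratio was 0.18, and within mitochondrial quartiles it was 0.20, against 0.16, with 1 member past the rule in each.

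Herpud1 was the member past the rule. Along the 4 LBPXRS bins it was at 10.1, 13.0, 15.2 and 17.3 CPM, in the order of the bins, and the ratio of the last to the first was 1.72 (1.39 to 2.12). Among the other counted members the largest log2 ratios were 0.47 for Dnajb11, 0.45 for Xbp1 and 0.42 for Creld2, and the lowest was -0.31 for Sec61b. In LB, which was binned in the same way into 1207 cells without a UMI and 3 bins of 192 cells, Herpud1 was at 10.5, 9.95, 18.3 and 33.3 CPM. There the ratio of the highest bin to none was 3.19 (2.64 to 3.85), and Herpud1 was the 1 member of 26 counted past 1.5-fold, where 1.23% of all genes were. Mesoderm markers summed to 231 CPM in the highest LB bin and 434 in the cells without a UMI, so the bins also differ in cell type. The summed members of LB were at 3019 in the cells without a UMI and at 3034 CPM in the highest bin. Of the 62 cells of the LB Pmel cluster described below, 43 lay in the former and 9 in the latter. Averaged over clusters of at least 200 cells with both bins, the Herpud1 ratio was 1.67 in LBPXRS (5 clusters) and 3.41 in LB (3 clusters). Binned by Chac1 alone it was 1.45 and 3.59, and the first no longer passed the 1.5-fold rule. With each LBPXRS cell weighted equally Herpud1 did not pass it either.

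The relation to the cell cycle differed by phase. LBPXRS cells were ordered by their share of UMIs in 52 G2/M genes and divided into quartiles. Of 27 counted members, 0 were at least 1.5-fold higher in the highest than in the lowest quartile, where 7.74% of all genes were, and 0 were at least 1.5-fold lower, against 1.11%. The members' median log2 ratio was 0.01, that of all genes counted 0.16. In LB, 5 of 26 were higher (Hspa5, Hsp90b1, Pdia4, Sel1l and Selenos), where 12.7% of all genes were (4 of 25 without Sel1l, which reached 10 CPM in the highest quartile only), with Hspa5 at 66.3 in the lowest and 138 in the highest quartile. Cell types moved with this share in LB: naive markers summed to 1438 CPM in the lowest and 781 in the highest quartile, and mesoderm markers to 314 and 476, and their part was not tested.

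Along the share of 43 S phase genes the sum of the members was graded. The summed members stood at 2509, 2711, 2918 and 3299 CPM in the 4 LBPXRS quartiles and at 2584, 2808, 3068 and 3640.4 in the 4 LB quartiles, in the order of the quartiles in both libraries. Of 28 counted LBPXRS members 6 were at least 1.5-fold higher in the highest quartile, where 10.1% of all genes were. They were Hspa5, Hyou1, Pdia3, Pdia4, Pdia6 and Derl3, of which Derl3 reached 10 CPM in the highest quartile only, and 5 of 27 passed among members at that level in both quartiles. The count of 6 was 3 with cells thinned to 10000 UMIs and 3 under TMM scaling. The members' median log2 ratio was 0.34 and that of all genes counted 0.22. Hspa5 was at 55.9, 65.3, 70.4 and 116 CPM along the quartiles, and the ratio of the last to the first was 2.07 (1.89 to 2.27). Pdia4 had a ratio of 1.73 (1.52 to 1.96), Pdia6 of 1.67 (1.56 to 1.79), and Hsp90b1, at 174 and 260.1, lay just short of the rule. In LB 13 of 27 were higher, where 7.43% of all genes were, among them 7 of the 8 HSP70 and HSP90 genes, with Hspa5 at 68.8 in the lowest and 197 in the highest quartile (ratio 2.86, 2.64 to 3.11). The 6 counted genes of ER-associated degradation in LB had 0 past the rule. Of the cytosolic chaperones, 4 of 13 were higher by the same rule in LBPXRS and 4 of 14 in LB, so genes outside the ER showed such differences too.

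**Figure D2:**
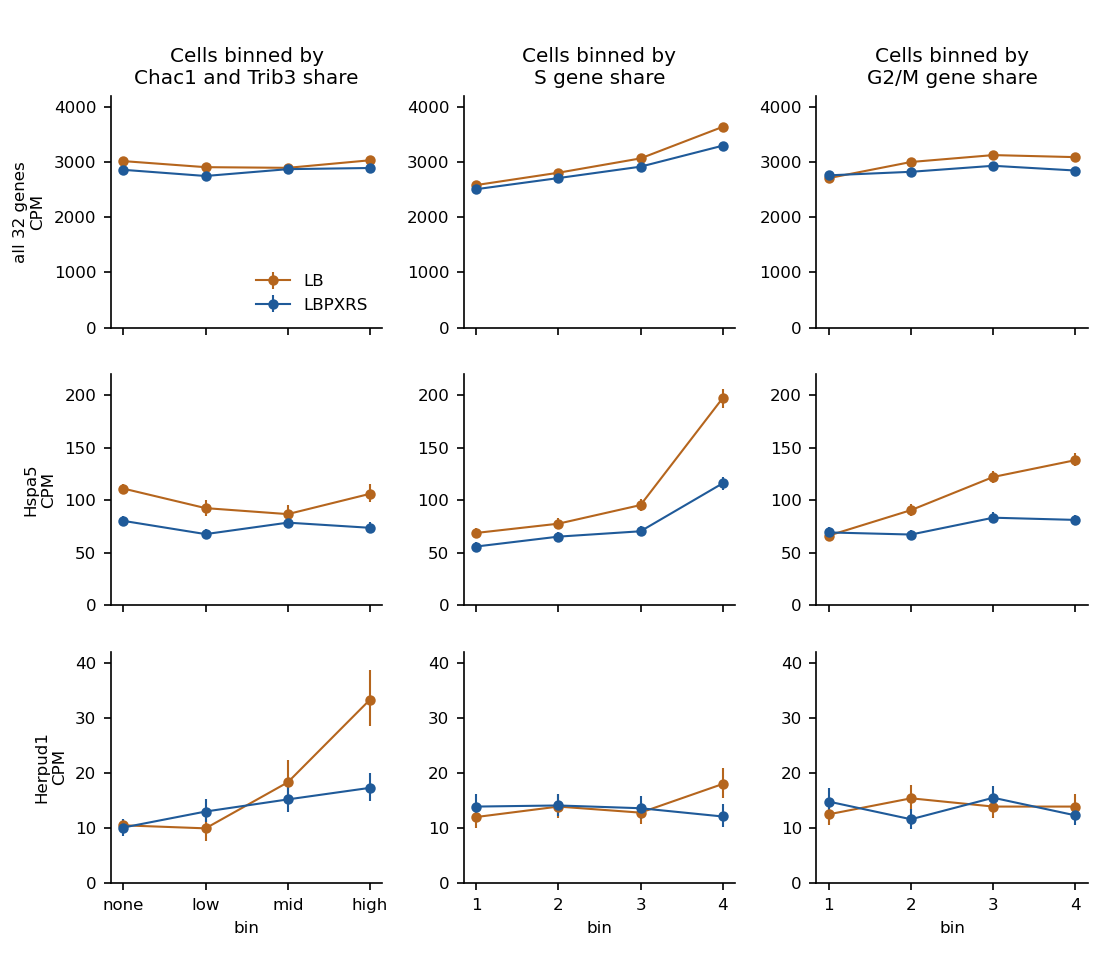
Summed level of the 32 genes (top), Hspa5 (middle) and Herpud1 (bottom), in CPM, in cells binned by Chac1 and Trib3 share (left), S gene share (middle) and G2/M gene share (right). Points are pooled bins of the LB and LBPXRS libraries with exact 95% Poisson intervals, and bins run from the lowest share on the left to the highest on the right. Hspa5 is highest in the last S bin of both libraries, and Herpud1 in the last Chac1 and Trib3 bin of both.

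The S gradient was also taken within cell clusters, with clusters under 200 cells left out. Clusters were made within each library from variable genes, leaving out the members, the PERK and ATF4 list and the phase genes. Averaged within the 5 LBPXRS clusters of at least 200 cells, the Hspa5 ratio was 1.48 and 2 members passed the rule in place of 6. Within the 4 such LB clusters the Hspa5 ratio was 2.44. In each of these 9 clusters the summed members were higher in the highest than in the lowest S quartile. The values lay closest together in the LBPXRS cluster led by Id3 and Krt8, at 3221 against 2969 CPM, and farthest apart in the LB mesoderm-like cluster led by Sprr2a3 and T, at 3872 against 2739. In the LBPXRS cluster led by Rhox6 the lowest quartile held 18 cells.

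A small set of cells in each library held far more of these transcripts than the rest. The cluster with Pmel and A2m among its leading genes held 49 LBPXRS cells (1.81%) and 62 LB cells (3.48%), and neither was given a cell type. Its summed members were at 10217 CPM in LBPXRS against 2789 in the other cells, and at 6419 in LB against 2933. In LBPXRS 27 of 30 counted members were at least 1.5-fold higher there, where 31.3% of all genes were, and in LB 21 of 30, where 31.2% were. Among members at 10 CPM or more both in the cluster and outside it, 23 of 26 passed in LBPXRS and 17 of 26 in LB, since Dnajb9, Atf6, Os9 and either Derl3 or Syvn1 reached that level in the cluster only. Members at least 1.5-fold lower there numbered 0 in both libraries, where 17.4% of all genes were lower in LBPXRS and 18.1% in LB. The members took no part in the clustering, but the clusters were found in the same cells, so these values are a description.

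In the LBPXRS cluster Hspa5 was at 852 CPM (332 UMIs) against 69.7 in the other cells, a ratio of 12.2 (10.9 to 13.7). Pdia4 was 8.65-fold and Pdia6 8.44-fold higher, and Derl3, which reached 59.0 CPM, 8.39-fold. Calr was at 1442 against 324 and Hsp90b1 at 1032 against 193 CPM. The 3 counted members that did not pass were P4hb (ratio 1.26), Edem1 (0.996) and Sec61b (0.831). In LB Hspa5 also had the highest ratio, at 547 against 97.5 (ratio 5.61, 5.06 to 6.20), followed by Pdia6 at 5.48-fold and Pdia4 at 4.73-fold, and Sec61b had a ratio of 0.818. Derl3 differed there, with 3 UMIs, or 3.90 CPM, in the LB cluster against 3.73 in the other LB cells. Without the 1 cell with the highest summed share the Hspa5 ratio was 9.78 in LBPXRS and 5.38 in LB.

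Members with an ER stress element in the promoter had a median log2 ratio of 2.15 in the LBPXRS cluster, with 10 of 10 counted past the rule. The members whose promoter row held none had a median of 1.54, with 11 of 14 past it, and the groups' ranges overlapped (1.40 to 3.59 and -0.27 to 3.08). The members with no promoter row had a median of 1.74, with 6 of 6 past it. In LB the medians with and without an element were 1.28 and 0.93. The LBPXRS counts and medians include members that reached 10 CPM in the cluster only: Derl3 with an element, Dnajb9 and Os9 without one, and Atf6 with no promoter row. In LB such members were Syvn1 with an element, Dnajb9 and Os9 without one, and Atf6. Between the Chac1 and Trib3 bins of LBPXRS the medians were -0.07 and 0.18, with the members holding an element the lower. The PERK and ATF4 list had a median log2 ratio of -0.16 in the LBPXRS cluster and 0.47 in the LB cluster, with 6 and 9 of 20 genes past the rule upward, where 31.3% and 31.2% of all genes were, and 3 downward in each. The sum of that list was higher in both clusters, at 3406 against 2430.0 CPM in LBPXRS and 2348 against 1181 in LB, so that its median and its sum differ in sign in LBPXRS. Chac1 and Trib3 together were at 71.9 CPM in the LBPXRS cluster, within the range of the other clusters (49.9 to 196), and at 39.0 in the LB cluster, against at most 38.3 in the others. In the wider ER list 32 of 47 were higher and 1 lower in the LBPXRS cluster, where 31.3% of all genes were higher, and 27 of 48 were higher and 5 lower in the LB cluster, where 31.2% were. The highest in LBPXRS were Stt3a, Rpn2 and Prkcsh, which act in the attachment and trimming of sugars, with log2 ratios of 2.88, 2.87 and 2.53 there. Of secreted and basement membrane cargo genes, 10 of 13 were higher and 0 lower in the LBPXRS cluster, and 9 of 10 higher and 1 lower in LB. Of cytosolic chaperones 2 of 13 were higher and 1 lower in LBPXRS, and 7 of 14 higher and 1 lower in LB. The shares of all genes are those given above.

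Marker lists did not name this cluster: naive markers summed to 1460.3 CPM in it against 1762 in the other LBPXRS cells and to 2059 against 1123 in LB, and primitive endoderm markers to 18.0 against 11.9 and to 13.0 against 14.9. Only 1 primitive endoderm marker was counted in each library, and it was at least 1.5-fold higher in the cluster in both. Mesoderm markers, of which 9 of 9 counted were lower in the LB cluster, summed to 15.6 CPM there against 349.5. The Pmel clusters stood apart in quality measures too. Their median depth was 7225 UMIs in LBPXRS and 11287 in LB, and their median mitochondrial share 6.93% and 6.71%, against library medians of 2.54% and 2.72%. Against the other cells of the highest mitochondrial quartile alone, the summed ratio was 3.49 in LBPXRS and 2.07 in LB, close to the 3.66 and 2.19 against all other cells. At a common depth of 5000 UMIs, 40 of the 41 LBPXRS cells of this cluster with that depth lay above 23.0 summed UMIs, the 95th percentile of the other cells, and 34 of 57 in LB lay above 25.0. Of these cells 26 of 49 in LBPXRS and 48 of 62 in LB fell in the highest S quartile. Without them and without the cluster described next, the Hspa5 ratio along the S quartiles was 1.76 in LBPXRS, and without them it was 2.42 in LB.

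**Figure D3:**
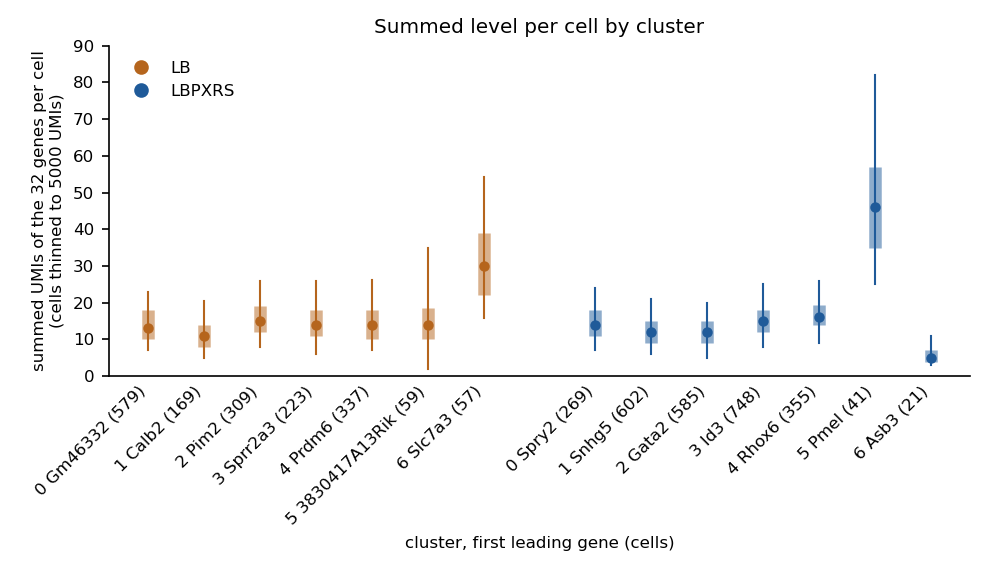
Summed UMIs of the 32 genes per cell, with each cell thinned to 5000 UMIs, in the clusters of LB and LBPXRS. The cluster number is followed by its first leading gene and the number of cells with that depth. Points are medians, thick bars the middle 50% of cells and thin lines the 5th to 95th percentile. LB cluster 6 and LBPXRS cluster 5 are the clusters with Pmel among their leading genes, with medians of 30 and 46.0 against 5.00 to 16.0 in the other clusters.

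Members were low in a cluster of 74 LBPXRS cells nearly without mitochondrial UMIs (median 0.0408%) and with a median depth of 3282 UMIs. Its summed members were at 1345 against 2854 CPM in the other cells, and 25 of 27 counted members were at least 1.5-fold lower, where 29.0% of all genes were. Of the 27, 10 were under 10 CPM in this cluster, and 15 of the 17 at that level in both pools were lower. Hspa5 rested on 12 UMIs there. Of the cytosolic chaperones 9 of 13 were at least 1.5-fold higher, where 27.2% of all genes were. Along the mitochondrial share of all LBPXRS cells the summed members were at 2665, 2816, 2803 and 3166 CPM from the lowest to the highest quartile. These cells include the Pmel cluster, with a median mitochondrial share of 6.93%, and its part in these values was not tested. Of 29 counted members 4 (Hyou1, Edem1, Derl3 and Sec61b) were at least 1.5-fold higher in the highest quartile, where 12.6% of all genes were. Derl3 reached 10 CPM in the highest quartile only, and 3 of 26 members at that level in both quartiles passed. In the same quartiles 7 of 20 genes of the PERK and ATF4 list were lower, where 3.01% of all genes were, and 0 higher.

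**Figure D4:**
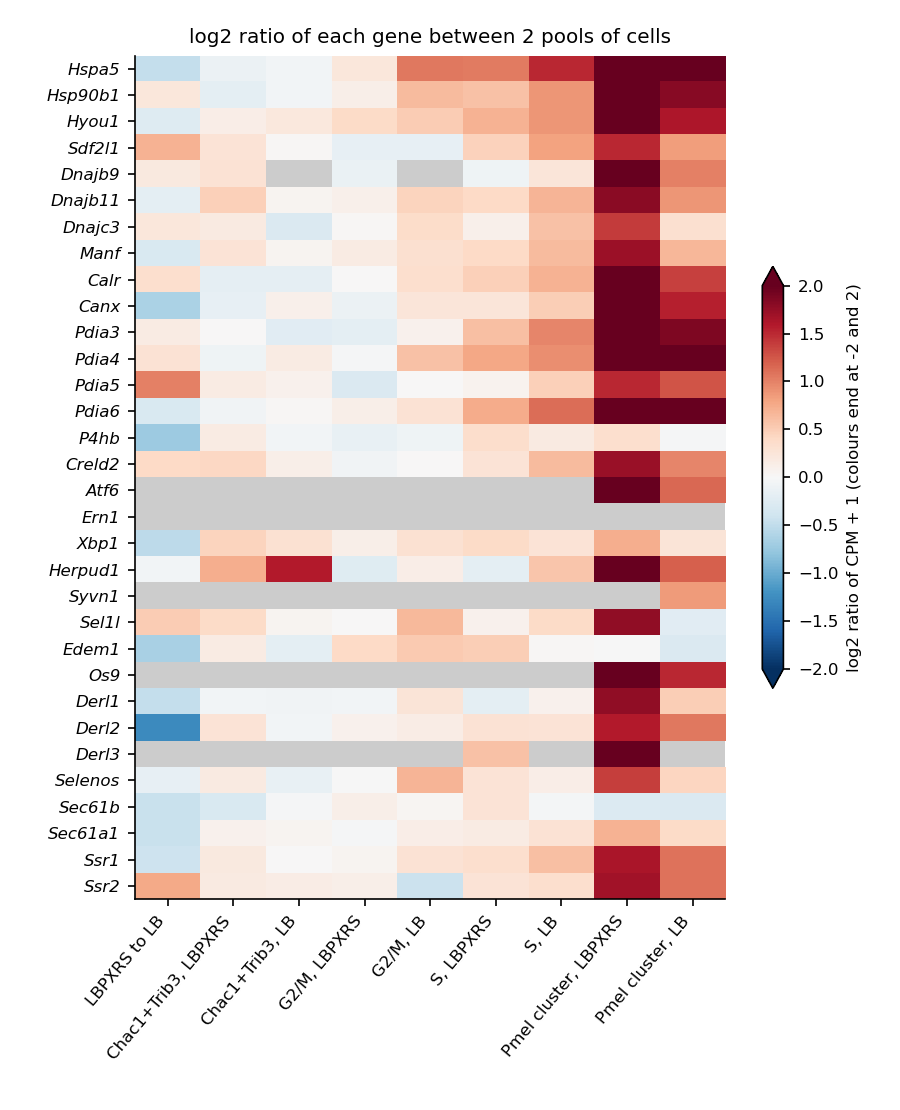
log2 ratio of CPM + 1 of each of the 32 genes (rows) in 9 comparisons of 2 pools (columns), where CPM is CPM. The Chac1+Trib3 columns set the highest bin against cells without a UMI, the G2/M and S columns the highest against the lowest quartile, and the Pmel columns that cluster against the other cells. Grey marks genes under 10 CPM in both pools. The Chac1+Trib3 columns are pale but for Herpud1, and in the LBPXRS Pmel column all coloured genes but P4hb, Edem1 and Sec61b are past 1.5-fold.

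The spread across LBPXRS cells was measured at 10000 UMIs per cell in 2509 cells, as the Fano factor, the variance divided by the mean, which is 1 for pure counting noise. The 26 members with a mean of at least 0.1 UMI had a median Fano factor of 1.10 (0.985 to 2.06), against 1.06 for 6771 genes. At 5000 UMIs, which keeps 41 of the 49 cells of the Pmel cluster in place of 12, the medians were 1.23 for the members and 1.05 for all genes. The minimum mean of 0.1 UMI was applied again at 5000 UMIs, so the medians at the 2 depths do not cover the same genes. At 10000 UMIs the 5 highest were among the more abundant members: Hsp90b1 had 2.06 with up to 35 UMIs in 1 cell, Calr 1.84, Ssr2 1.73, Hspa5 1.69 and Pdia6 1.59. Canx and P4hb, with higher means than Hspa5, had 1.19 and 1.16. The share of cells with an Hspa5 UMI was 45.4% in LBPXRS and 49.3% in LB at this depth. Since every cell type here uses these genes, no cells lacking them were at hand to measure how much free RNA adds to such shares.

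The summed members ran from 16.0 at the 5th percentile over a median of 27.0 to 44.0 UMIs at the 95th percentile, with a Fano factor of 3.50, and of 3.03 without the 12 cells of the Pmel cluster at this depth. Pairs were formed among the 16 members with a mean of at least 0.5 UMI per thinned cell. Across cells the highest Spearman correlation among these 120 pairs was 0.29, between Calr and Hsp90b1, followed by Calr with Hspa5 (0.20) and by Hsp90b1 with Hspa5 and Pdia6 with Pdia3 (both 0.19), while the median pair was at 0.05. In LB the highest were Calr with Hspa5 (0.31) and Calr with Hsp90b1 (0.29). Such correlations share the cells' library and come from sparse counts, and they describe these cells only.

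Per cell the summed members correlated with the Chac1 and Trib3 UMIs at 0.04, with the G2/M UMIs at 0.06, with mitochondrial UMIs at 0.14 and with the S phase UMIs at 0.27 in LBPXRS. The LB values were 0.02, 0.11, 0.20 and 0.31. Gene by gene, the members' correlation with Chac1 and Trib3 ran from -0.11 for Sec61b to 0.10 for Dnajb11 with a median of 0.02 and with Herpud1 at 0.05, while the middle 95% of 6769 genes lay between -0.08 and 0.10. Sec61b, which had the lowest of these values, had the highest of the members with mitochondrial UMIs, at 0.36. With the S phase UMIs the members' median in LBPXRS was 0.06 and their highest value 0.15. There 6733 genes had a median of 0.03, with the middle 95% between -0.08 and 0.14. In LB the medians were 0.11 for the members and 0.02 for all genes.

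The 10 non-member genes whose UMIs correlated most with the summed members across LBPXRS cells, among 2231 genes with a mean of at least 0.5 UMI, were Ppia (0.27), Igfbp2 (0.26), Pkm (0.25), Eif4a1, Sparc, Dbi, Hsp90aa1, Hspd1, Trim28 and Gsta4 (0.22). They include a secreted matrix protein, Sparc, and the cytosolic and mitochondrial chaperones Hsp90aa1 and Hspd1. Among the lowest values was that of Rpl13a, a ribosomal protein gene, at -0.37. At a fixed number of UMIs per cell all genes share the same total, and how much this adds to a negative value was not tested.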

How the data were processed

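Both libraries were made with the 10x 3' v2 kit, and the authors deposited UMI counts per gene and barcode, produced with Cell Ranger 4.0.0 on mm10 per the submitters' processing notes. Gene positions came from GENCODE M21 and promoters from RefSeq. Barcodes with at least 1000 genes and at most 10% mitochondrial UMIs were kept (1783 of 2008 in LB, 2705 of 3111 in LBPXRS), and no doublet caller was run. Counts were summed over cells and scaled to CPM. Genes with at least 10 in either pool were counted, and called at 1.5-fold on log2(CPM + 1). Intervals of ratios are exact conditional binomial ones. Clusters came from scanpy 1.11.5 (2000 variable genes, 30 components, 15 neighbours, Leiden resolution 0.5). TMM factors came from edgeR 4.0.16. The steps were tested on simulated data. The members and gene lists were chosen with earlier results of these data known. Every member is given. Those with at least 100 CPM, at least 1.5-fold apart, or sensors were to be described in full, and the others by their levels. From other lists, the 3 highest and 3 lowest ratios could be named, and further ones were chosen after their values were seen.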

Additional observations from a re-analysis of the deposited data

How the results depend on the processing

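With 1 library per condition no replicate could be left out. No paired analysis was possible because each condition has 1 library. Under TMM scaling, which shifts every LBPXRS to LB log2 ratio by 0.15, the members' median was -0.05, with 4 higher and 1 lower against 3 and 4. Against naive pluripotent-like LB cells alone the median was 0.11, with 3 higher (Pdia5, Dnajc3 and Sel1l, no longer Sdf2l1 and Ssr2) and 3 lower (Derl2, P4hb and Xbp1, no longer Canx and Edem1). With genes down to 1 CPM counted, 5 were higher, and without chromosomes 8 and 11, 1 was lower. Along the Chac1 and Trib3 share, 0 members were higher with bins by Chac1 alone or with cells weighted equally. The alternatives in the rest of this paragraph, apart from the depth for the Fano factor, were chosen after seeing the data. Along the S share in LBPXRS, 3 members were higher at 10000 UMIs per cell, 3 under TMM and 2 within clusters, and in LB 9 under TMM, the farthest of 5 settings, against 13. The summed ratio of the Pmel cluster was 3.05 under TMM and 3.49 against the highest mitochondrial quartile in LBPXRS, and 1.81 and 2.07 in LB. The median Fano factor was 1.23 at 5000 UMIs. The cause of these shifts was not tested. Of 102 recomputed summary values 87 stayed within their counting interval or 1.5 times, and of 174 values of single genes 126 did, while 48 moved, of which 0 past the 1.5-fold rule changed sign. At 10 CPM the counting interval of a small pool is wide. Genes below that level in both pools were left out of the counts, except in the setting down to 1 CPM.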
